A study of Mus musculus with 12 samples.

Results

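Chemokine receptor RNA was described for 10 genes, Ccr2, Ccr4, Ccr6, Ccr7, Ccr8, Ccr9, Cxcr3, Cxcr4, Cxcr5 and Cxcr6, in mouse CD4 T cells sorted as regulatory T cells (Tregs) with high or low CD25. The genes were chosen by name, and the 10 rows were found by Ensembl identifier among 21839 genes of the count table. All mice were C57BL/6 with both copies of the autophagy gene Atg5 flanked by loxP sites. In TG mice (Atg5 flox/flox CD11c Cre +/-) the CD11c promoter drives Cre recombinase, which removes Atg5 in CD11c-expressing cells, mainly dendritic cells, and the T cells themselves are not the target. Their WT littermates (Atg5 flox/flox CD11c Cre -/-) carry the floxed gene without Cre. From each genotype, CD4+ cells from spleen and lymph nodes (brachial, cervical, inguinal) were selected for a further surface marker and sorted as CD25 High or CD25 Low. This gave 3 libraries each of TG High, WT High, TG Low and WT Low, 12 in all. The labels give no age, no Foxp3 stain or reporter in the gates, and no statement that each replicate is another animal; p-values therefore cover the spread among these libraries, which may be technical.

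Chemokine receptors are G protein-coupled receptors that signal through inhibitory G proteins and steer leukocytes along gradients of small secreted proteins, the chemokines. Which receptors a Treg carries helps set where it goes: Ccr7, which binds Ccl19 and Ccl21, leads naive and resting T cells into lymph nodes, whereas receptors such as Cxcr3, Ccr2, Ccr4, Cxcr6 and Ccr8 are found on activated or effector Tregs that enter inflamed or non-lymphoid tissue. Ccr9 guides lymphocytes to the small intestine, Cxcr5 to B cell follicles, and Cxcr4 to tissues rich in Cxcl12.

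Library totals ran from 6767828 counts (TG High replicate 2) to 23942479, the other 11 having at least 18161830. CD25 itself is encoded by Il2ra, whose level was 1183 ± 67.9 CPM in TG High and 1190 ± 118 CPM in WT High, against 593 ± 108 CPM in TG Low and 589 ± 130 CPM in WT Low (mean ± SD, n = 3 each). CPM here are TMM-scaled counts, set to a common library size. Foxp3, the transcription factor that defines Tregs, was present in every library at 983 to 1662 CPM, and it was higher in the High than in the Low library of all 6 pairs. Atg5 averaged 38.6 CPM in TG High, 33.3 in WT High, 38.6 in TG Low and 37.0 CPM in WT Low, which checks nothing about the genotype, since T cells were not the target. The replicate numbers set the libraries apart. The 4 libraries numbered 1 had the highest summed levels of 20 effector Treg genes, 913 to 1743 CPM against 334 to 657 CPM in the other 8 libraries, and of 13 B cell genes, 754 to 1179 CPM against 361 to 610 CPM. Libraries with the same number varied together across the groups, so each comparison was fitted without and then with the number in the model as a block.

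Levels of different genes were set side by side per kilobase of exon, with all annotated exons of a gene joined. This length can exceed that of the transcript made, which lowers the value. It ran from 1175 bases for Ccr8 to 10260 for Ccr9, with 6760 for Ccr2. Before division by length, the means of these 3 over the 12 libraries were alike, at 20.1, 18.4 and 20.1 CPM. Ccr7 was far above the other receptors, at a median of 358 CPM per kb over the 12 libraries and a range of 317 to 434. Cxcr4 followed at a median of 14.3, then Cxcr5 at 10.7, Cxcr3 at 8.75 and Ccr8 at 8.51 CPM per kb. Ccr6 stood at 6.77, Ccr4 at 4.53, Ccr2 at 2.20, Ccr9 at 1.85 and Cxcr6 at 1.21 CPM per kb. Ccr7 exceeded Cxcr4 in 12 of 12 libraries and Ccr4 exceeded Ccr2 in 12 of 12, but Cxcr4 exceeded Cxcr5 in only 6 of 12, Cxcr5 exceeded Cxcr3 in 6 and Cxcr3 exceeded Ccr8 in 4, so the order among these 4 was not fixed from library to library. Nor was the order of the lowest: Ccr2 exceeded Ccr9 in 8 of 12 libraries and Ccr9 exceeded Cxcr6 in 6, and by its mean, 5.78 CPM per kb, Cxcr6 stood above Ccr2 at 2.97 and Ccr9 at 1.79. The spread over libraries also differed from gene to gene. The highest library was 1.37 times the lowest for Ccr7, 2.45 times for Cxcr5 and 2.58 times for Ccr9, against 55.3 times for Cxcr3, 98.8 times for Ccr2 and 107 times for Cxcr6.

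**Figure D1:**
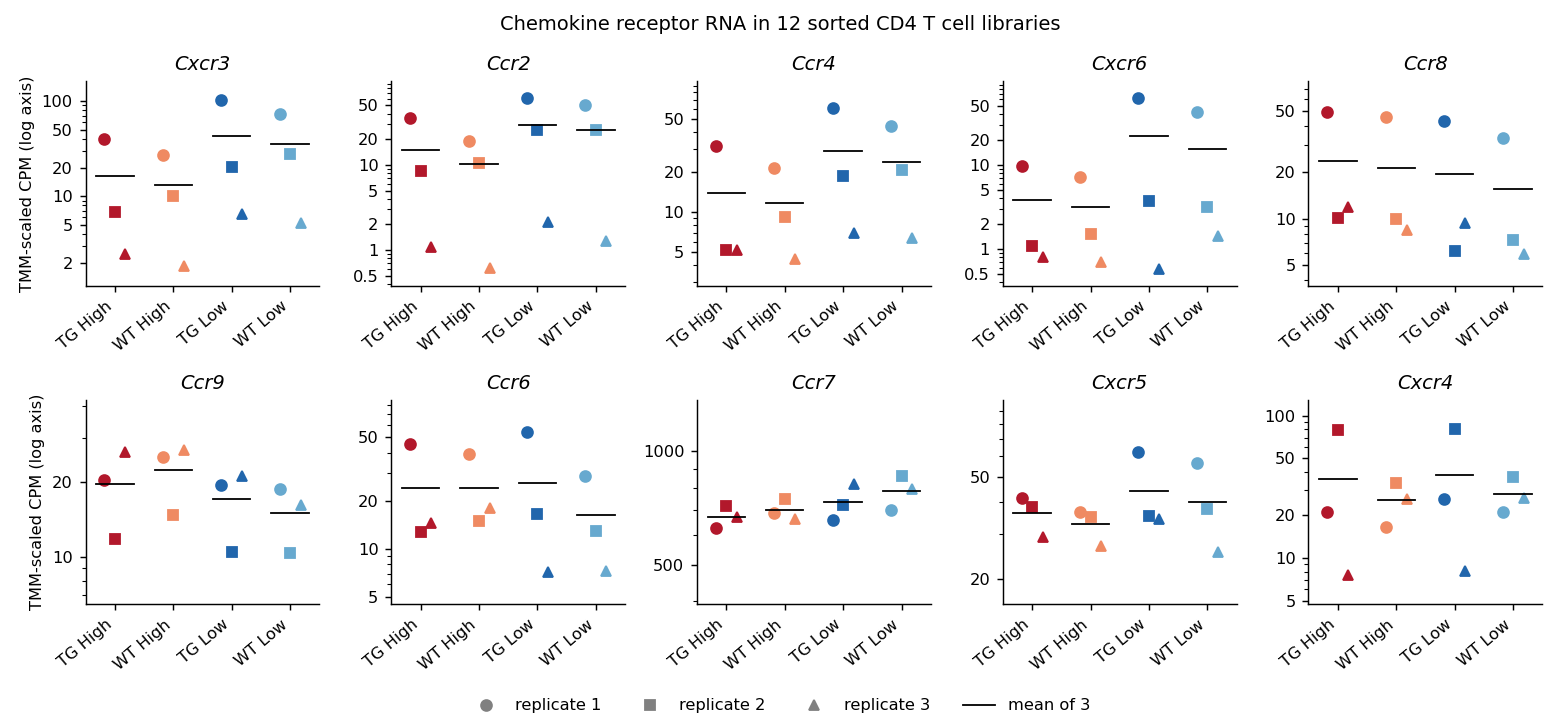
Level of each receptor gene in the 12 libraries, in TMM-scaled CPM on a log axis, by group (TG High, WT High, TG Low, WT Low); the symbol shape gives the replicate number and the bar the mean of 3 libraries. Within each group the circles (replicate 1) are the highest points for Cxcr3, Ccr2, Ccr4, Cxcr6, Ccr8 and Ccr6, while Ccr7 lies between 627 and 859 CPM throughout.

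The first comparison was CD25 High against CD25 Low. Cxcr3, Ccr2, Ccr4 and Cxcr6 RNA was lower in CD25 High cells, by 1.92-fold to 3.74-fold over both genotypes, and Ccr8 and Ccr9 RNA was higher, by 1.34-fold and 1.30-fold, when the replicate number was a block. Ccr7, Cxcr5, Ccr6 and Cxcr4 did not pass the test. These 6 calls of 10, at an adjusted p under 0.05 in edgeR's quasi-likelihood test with Benjamini-Hochberg adjustment over 11766 genes, stand beside 5.88% of all tested genes (3.26% higher and 2.63% lower). Within TG the block called 2 of 10 receptors beside 1.68% of genes, and within WT 3 of 10 beside 1.63%. Without the block edgeR called 0 of the 10 in this comparison (0.518% of all genes, 1021 genes at an unadjusted p under 0.05), and so did DESeq2; within TG (0.0085%, 578 genes at an unadjusted p under 0.05) and within WT (0.051%, 391 genes) both tools likewise called 0 of the 10. High and Low libraries overlapped within each genotype for all 10 receptors. A further fit gave each of the 6 pairs of High and Low libraries of the same genotype and number a block of its own. It called 6 of the 10 over both genotypes (6% of all genes), 3 in TG (1.72%) and 4 in WT (1.68%), and it was added after the pairs had been seen. The labels do not say that such a pair came from the same mice. In a sorted population, fewer cells of a type and less RNA per cell cannot be told apart.

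Cxcr3, the receptor for the interferon-induced chemokines Cxcl9, Cxcl10 and Cxcl11 and a marker of type 1 effector cells, showed the steadiest difference. In TG mice it had 39.7, 6.89 and 2.49 CPM in High replicates 1, 2 and 3, against 101, 20.2 and 6.57 CPM in Low. In WT mice it had 27.0, 10.1 and 1.83 CPM in High, against 72.6, 27.8 and 5.23 CPM in Low. The level spanned a wide range over the replicates, yet the High library was below its Low partner in 6 of 6 pairs, at 0.341 to 0.392 of its level. With the number as a block the log2 change was -1.35 in TG (SE 0.21, edgeR adjusted p = 0.00398) and -1.46 in WT (SE 0.20, adjusted p = 0.00158), and -1.40 over both (SE 0.14, adjusted p = 5.64e-05), or 2.65-fold lower. With each pair as a block, the fit added after the pairs had been seen, the log2 change was -1.43 (SE 0.07, edgeR adjusted p = 2.81e-06). Cxcr3 then had rank 1 by p among the 11766 genes, also within TG and within WT. Without a block Cxcr3 had rank 2691 over both genotypes (edgeR adjusted p = 0.826). Over the 20 fits with a block it was called lower in 20 when the genotypes were pooled and in 20 within WT. Within TG it was called in 19, the exception being the fit without the 4 libraries numbered 3 (adjusted p = 0.0650).

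Ccr2, the receptor for Ccl2 that carries cells into inflamed tissue, followed Cxcr3. It had 35.7, 8.57 and 1.08 CPM in TG High replicates 1, 2 and 3, against 60.3, 25.7 and 2.12 CPM in TG Low. It had 19.3, 10.5 and 0.610 CPM in WT High, against 50.0, 25.6 and 1.27 CPM in WT Low. All 6 High libraries were below their partners, by 1.69-fold to 3.00-fold. With the block Ccr2 was called lower in TG (log2 -1.02, SE 0.20, edgeR adjusted p = 0.0150), in WT (log2 -1.29, SE 0.20, adjusted p = 0.00197) and over both (log2 -1.15, SE 0.14, adjusted p = 1.01e-04). The replicate 3 libraries rest on 14 to 40 Ccr2 counts each. Within TG the Ccr2 call was lost without TG Low replicate 1 (edgeR adjusted p = 0.112), without TG Low replicate 2 (adjusted p = 0.0532) and without the 4 libraries numbered 1 (adjusted p = 0.105), and within WT without those 4 (adjusted p = 0.100). The pooled call was made in 20 of 20 blocked fits.

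Ccr4, which binds Ccl17 and Ccl22 and serves homing to skin and other tissues, had 31.5, 5.20 and 5.25 CPM in TG High, against 60.8, 18.7 and 6.94 CPM in TG Low. In WT it had 21.7, 9.31 and 4.49 CPM in High, against 45.0, 20.7 and 6.41 CPM in Low. The High library was lower in 6 of 6 pairs, and the pairs numbered 3 differed least, at ratios of 0.757 in TG and 0.701 in WT. Over both genotypes Ccr4 was called 1.92-fold lower with the number as a block (log2 -0.94, SE 0.17, edgeR adjusted p = 0.00647). Within TG and within WT it was called in 3 of 20 blocked fits each, among them the fit with each pair as a block (edgeR adjusted p = 0.0397 in TG and 0.0413 in WT).

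Cxcr6, the receptor for the membrane-bound chemokine Cxcl16 and a marker of effector and tissue-resident T cells, had the largest fold and the least even one. TG High had 9.60, 1.07 and 0.797 CPM, against 62.1, 3.69 and 0.583 CPM in TG Low. WT High had 7.18, 1.52 and 0.697 CPM, against 42.0, 3.16 and 1.42 CPM in WT Low. The replicate 1 pairs differed by 6.47-fold in TG and 5.85-fold in WT, whereas the TG pair numbered 3 ran the other way, on 17 counts in High and 11 in Low. TG High replicate 2 held 7 Cxcr6 counts. Pooled with the block, the log2 change was -1.90 (SE 0.38, edgeR adjusted p = 0.0248). Without the 4 libraries numbered 1 the log2 change of Cxcr6 was -0.92 (SE 0.36) and the call was lost (edgeR adjusted p = 0.373). It was also lost without TG High replicate 1 or 2 or any WT Low library (adjusted p = 0.0589 to 0.168), and without the 4 libraries numbered 2. Within a genotype Cxcr6 was not called with the number as a block (edgeR adjusted p = 0.155 in TG and 0.214 in WT).

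Ccr8, the receptor for Ccl1 found on highly suppressive effector Tregs, differed from these 4 in direction. Ccr8 stood at 49.1, 10.1 and 11.9 CPM in TG High, against 43.4, 6.21 and 9.32 CPM in TG Low, and at 45.9, 9.90 and 8.46 CPM in WT High, against 33.5, 7.31 and 5.87 CPM in WT Low. The High library was above its partner in 6 of 6 pairs, by 1.13-fold to 1.63-fold. The pooled log2 change with the block was 0.43 (SE 0.11, edgeR adjusted p = 0.0282), and Ccr8 was called in 10 of the 20 blocked fits. The call was lost without TG High replicate 3, WT High replicate 1 or 2, TG Low replicate 1 or 2, or WT Low replicate 1 or 3 (edgeR adjusted p = 0.0514 to 0.0849). It was also lost without the 4 libraries numbered 1, 2 or 3, at an edgeR adjusted p of up to 0.289, the highest of the 20 blocked fits. Ccr8 was called within neither genotype in any of them.

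Ccr9, the receptor for Ccl25 that directs lymphocytes to the small intestine, was likewise higher in High. It had 20.3, 11.8 and 26.4 CPM in TG High, against 19.4, 10.5 and 21.0 CPM in TG Low. It had 25.1, 14.7 and 26.6 CPM in WT High, against 18.6, 10.3 and 16.1 CPM in WT Low. Ratios ran from 1.04 to 1.26 in TG and from 1.35 to 1.65 in WT. The difference between the genotypes was not called by edgeR with the block (log2 -0.35, SE 0.18). With the block the log2 change was 0.20 in TG (SE 0.13, edgeR adjusted p = 0.582), 0.55 in WT (SE 0.13, adjusted p = 0.0332) and 0.38 over both (SE 0.09, adjusted p = 0.0198). The WT call of Ccr9 was lost when any 1 WT library was left out (edgeR adjusted p = 0.0793 to 0.234). Leaving out the 4 libraries numbered 1, 2 or 3 also lost it (edgeR adjusted p up to 0.267). The pooled call was made in 13 of 20 blocked fits and was lost without TG High replicate 3, WT High replicate 1, TG Low replicate 1 or WT Low replicate 3 (adjusted p = 0.0524 to 0.0820). Without the 4 libraries numbered 1, 2 or 3 it was lost too (edgeR adjusted p up to 0.212). Exons of Ccr9 overlap those of Slc6a20a on the other strand, but that gene was at 0 in 11 libraries and at 0.307 CPM in the highest. They also overlap exons of the long noncoding RNA gene Gm17200 on the same strand and of AC165425.1 on the other. Neither of these is in the count table, and their part in the Ccr9 counts was not tested.

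**Figure D2:**
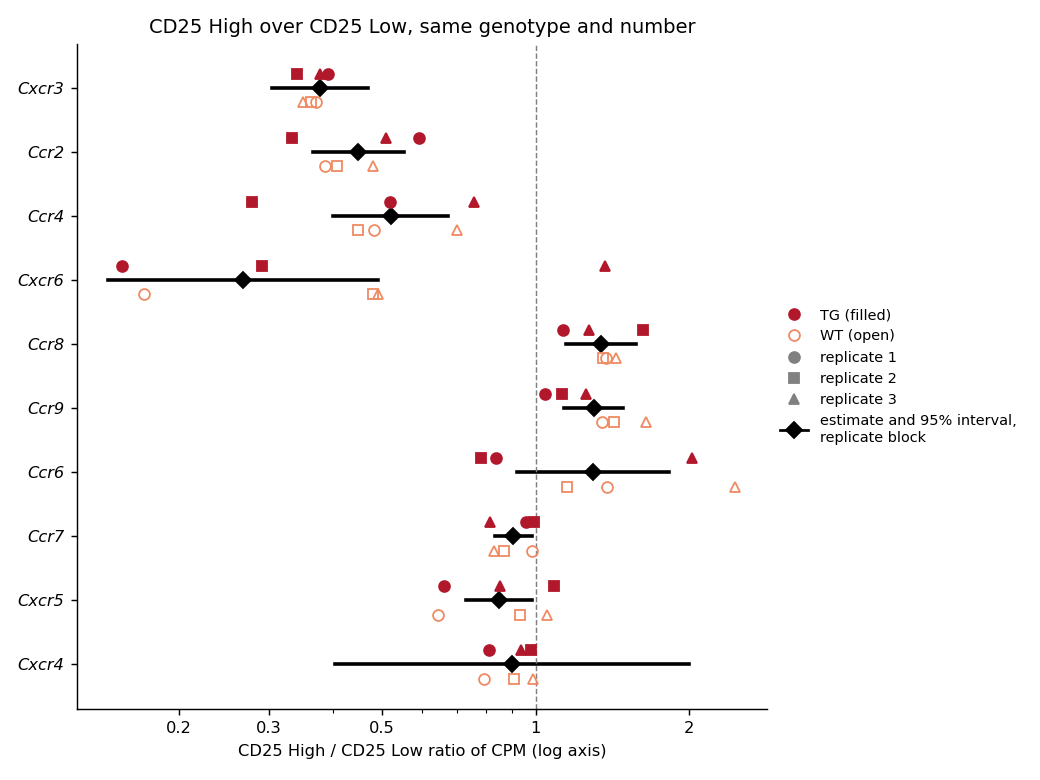
Ratio of CD25 High to CD25 Low CPM for the 6 pairs of the same genotype and number (filled, TG; open, WT; shape, replicate number; log axis), with the estimate over both genotypes and its 95% interval from the model blocked on replicate number (diamond and bar). All 6 Cxcr3 pairs lie between 0.341 and 0.392, and those of Ccr8 and Ccr9 lie above 1.

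The other 4 receptors did not pass in any of the blocked fits. Ccr7 had 627, 718 and 668 CPM in TG High, against 655, 722 and 820 CPM in TG Low, and 686, 746 and 660 CPM in WT High, against 698, 859 and 795 CPM in WT Low. It was lower in High in 6 of 6 pairs, but by at most 1.23-fold, and with the block the pooled ratio was 0.904 (95% interval 0.832 to 0.983, edgeR adjusted p = 0.173). For this gene a change of 1.5-fold in either direction lies outside that interval.

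Cxcr4, the receptor for Cxcl12, differed by genotype and number together. Replicates 1, 2 and 3 had 20.9, 79.3 and 7.55 CPM in TG High and 25.8, 81.0 and 8.05 CPM in TG Low, against 16.5, 33.6 and 25.9 CPM in WT High and 20.8, 37.1 and 26.2 CPM in WT Low. High and Low libraries of the same genotype and number were thus close to each other, with High below Low in 6 of 6 pairs at ratios of 0.792 to 0.989. With the number as a block the pooled ratio had a 95% interval of 0.404 to 2.00, and with each pair as a block the ratio was 0.900 (interval 0.809 to 1.00, edgeR adjusted p = 0.263).

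Cxcr5, the follicular receptor for Cxcl13, was lower in High in 4 of 6 pairs, at ratios of 0.643 to 1.09 (pooled log2 change with the block -0.24, SE 0.10, edgeR adjusted p = 0.217). Its exons overlap those of Bcl9l on the other strand, which stood at 61.4 to 120 CPM, and without strand in the reads the genes cannot be told apart there. Ccr6, the receptor for Ccl20 on type 17 cells and some Tregs, was higher in High in 4 of 6 pairs, at ratios of 0.781 to 2.46 (pooled log2 change 0.37, SE 0.22, edgeR adjusted p = 0.426). The highest Ccr6 ratios were those of the pairs numbered 3, 2.03 in TG and 2.46 in WT.

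Promoter sequence was at hand for 8 of the 10 genes from RefSeq (GRCm38.p6), as windows from 250 bases before to 50 after the start. For 5 of the 6 receptors called by gate, the stretch upstream of the start that lies outside annotated exons is shown. Of these, Cxcr3, Ccr4 and Cxcr6 were called lower and Ccr8 and Ccr9 higher in CD25 High over both genotypes with the block. Ccr2 is left out, since that stretch has only 17 bases. All are written 5′ to 3′ on the strand of the gene: Cxcr3 is chrX:101734270-101734397 (minus), Ccr4 chr9:114496563-114496794 (minus), Cxcr6 chr9:123806227-123806474 (plus), Ccr8 chr9:120091883-120092113 (plus) and Ccr9 chr9:123766961-123767168 (plus). Capitals mark matches, on either strand, to the T-box core TCACAC, the RUNX core ACCACA, the forkhead core TGTTTA or the STAT motif TTCNNNGAA.
Cxcr3: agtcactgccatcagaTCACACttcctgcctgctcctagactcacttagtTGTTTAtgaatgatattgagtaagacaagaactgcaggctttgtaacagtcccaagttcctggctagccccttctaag
Ccr4: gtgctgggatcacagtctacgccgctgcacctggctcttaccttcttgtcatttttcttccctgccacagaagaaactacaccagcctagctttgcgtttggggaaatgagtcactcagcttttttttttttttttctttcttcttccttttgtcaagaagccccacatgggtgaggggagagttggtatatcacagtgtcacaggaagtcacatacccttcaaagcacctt
Cxcr6: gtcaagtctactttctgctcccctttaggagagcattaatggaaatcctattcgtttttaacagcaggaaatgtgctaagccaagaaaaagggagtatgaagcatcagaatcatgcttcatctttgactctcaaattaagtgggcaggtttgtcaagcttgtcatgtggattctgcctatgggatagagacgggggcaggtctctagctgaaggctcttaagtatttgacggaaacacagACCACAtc
Ccr8: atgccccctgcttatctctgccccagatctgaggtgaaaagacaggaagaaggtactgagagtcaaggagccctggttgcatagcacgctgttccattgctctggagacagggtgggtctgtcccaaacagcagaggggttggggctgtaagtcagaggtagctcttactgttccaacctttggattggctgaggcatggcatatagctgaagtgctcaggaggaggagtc
Ccr9: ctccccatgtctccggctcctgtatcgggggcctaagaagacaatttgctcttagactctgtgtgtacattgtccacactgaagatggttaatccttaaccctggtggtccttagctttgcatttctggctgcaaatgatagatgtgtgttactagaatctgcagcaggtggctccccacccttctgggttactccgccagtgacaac
The Cxcr3 stretch held the T-box core and the forkhead core once each, the Cxcr6 stretch held the RUNX core once, and the stretches of Ccr4, Ccr8 and Ccr9 held none of the 4 motifs. No match overlapped another. Over the full windows of 300 bases, Cxcr3 held the T-box core once, the forkhead core once and the RUNX core 2 times, Cxcr6 held the RUNX core once, and Ccr2, Ccr4, Ccr8 and Ccr9 held none of the motifs. Among receptors not called by gate, Cxcr4 held none. Ccr6 held the STAT motif 2 times and the RUNX core once in its window from chr17:8235793, and none in that from chr17:8242276. Of all 32851 RefSeq windows of 300 bases, longer than the stretches shown, 14.5% held the T-box core, 16.8% the RUNX core, 13.4% the forkhead core and 8.30% the STAT motif, so a single match is common and is given as a description only.

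Of the 10 receptors 6 lie on chromosome 9, and 3 of these, Ccr9, Cxcr6 and Ccr2, sit in a cluster of chemokine receptor genes there (described here from Ccr9 to Ccr2, GRCm38, chromosome 9, 123678439 to 124113557). The cluster did not move as one by gate. Ccr9 at its one end was called higher in High, whereas Cxcr6, Ccr3 and Ccr2 were called lower with the number as a block. Ccr3, a receptor for Ccl11 best known from eosinophils, had 5.89, 0.765 and 0 CPM in TG High, against 14.9, 4.80 and 0.371 CPM in TG Low. In WT it had 5.68, 1.69 and 0.0872 CPM in High, against 13.4, 6.33 and 0.147 CPM in Low. High was below Low in each pair (pooled log2 change -1.61, SE 0.24, edgeR adjusted p = 5.33e-04). Ccr1, a receptor for Ccl3 found on myeloid cells, was not called in the same edgeR fit (log2 -1.11, SE 0.58, adjusted p = 0.340). Lztfl1 (log2 0.11, SE 0.12), which lies within the span of Ccr9, and Fyco1 (log2 0.08, SE 0.08), whose span holds Cxcr6, encode proteins of intracellular transport and were not called either. Ccr9 and Cxcr6 thus carried opposite signs, and without the block none of these genes was called.

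**Figure D3:**
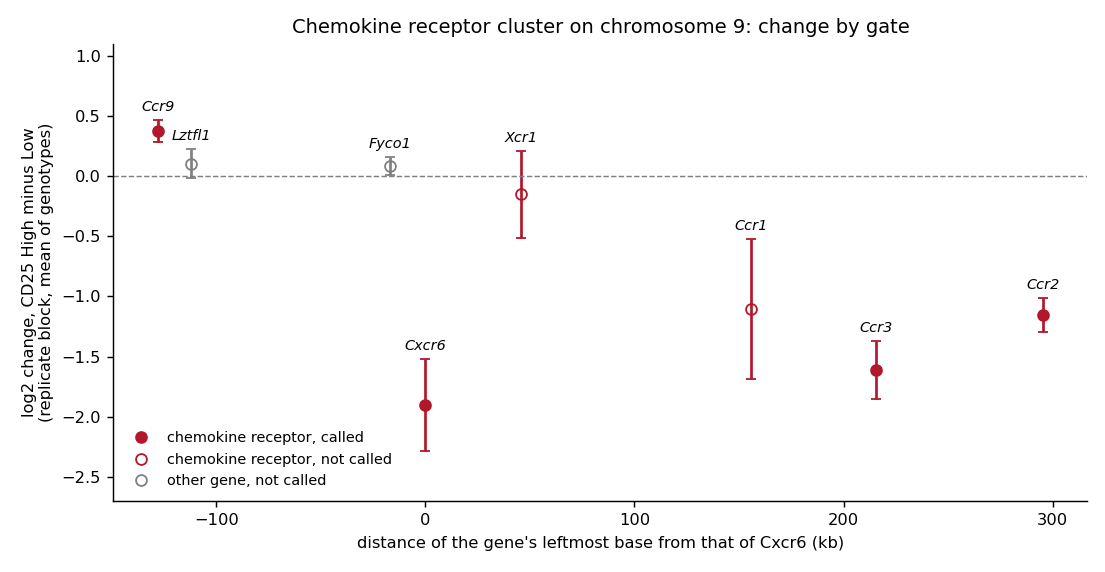
Log2 change, CD25 High minus CD25 Low over both genotypes with the replicate number as a block, of the tested genes of the chromosome 9 receptor cluster (bars, 1 SE each way), against the distance of the leftmost base of each gene from that of Cxcr6 in kb. Ccr9 lies at 0.38 and Cxcr6, Ccr3 and Ccr2 lie between -1.90 and -1.15.

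Other genes of the chemokine system were read from lists. Of 13 further receptors 8 were expressed highly enough to test, and with the block 1 was called in the pooled comparison of High with Low, Ccr3, at a list median of -0.64 on the log2 scale against 0.00 over all genes. Of 35 chemokine ligands 8 were tested and 0 called (0 also without the block), with a median log2 change of -0.39. Of 36 tested genes of receptor signalling 3 were called with the block, all higher in High, at a list median of -0.02, against 0 without the block. That count lies near the 5.88% called over all genes. They were Rgs1 (log2 0.83, SE 0.07, edgeR adjusted p = 5.20e-06), Rgs16 (log2 0.63, SE 0.15, adjusted p = 0.0301) and Plcb3 (log2 0.30, SE 0.07, adjusted p = 0.0215). Rgs1 and Rgs16 encode GTPase-activating proteins that shorten G protein signals downstream of chemokine receptors, and Plcb3 a phospholipase that those signals activate. Rgs1 stood at 355 ± 32.6 CPM in TG High against 203 ± 47.0 CPM in TG Low, and at 327 ± 50.6 CPM in WT High against 187 ± 63.0 CPM in WT Low (SD, n = 3 each).

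Transcription factors that set helper lineages were read in the same fit, and 6 of 30 were called with the block, beside 5.88% of all genes. Without the block 1 of the 30, Foxp3, was called. Tbx21, which encodes T-bet, a direct activator of Cxcr3 in type 1 cells, was lower in High (log2 -0.89, SE 0.19, edgeR adjusted p = 0.00961). Its level was 8.01, 1.68 and 1.88 CPM in TG High, against 20.6, 3.58 and 2.12 CPM in TG Low, and 7.50, 2.23 and 1.48 CPM in WT High, against 15.0, 5.02 and 1.76 CPM in WT Low. Tbx21 was below its Low partner in 6 of 6 pairs, at ratios of 0.388 to 0.885, a wider range than that of Cxcr3. Maf (log2 -0.82, SE 0.18, adjusted p = 0.0181), a factor of effector T cells, and Satb1 (log2 -0.21, SE 0.05, adjusted p = 0.0162), a chromatin organiser of resting T cells, were also lower in edgeR's blocked fit. Foxp3 (log2 0.47, SE 0.06), Stat5a (log2 0.26, SE 0.05) and Gata3 (log2 0.18, SE 0.05) were higher.

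Lists of Treg state were read in the same comparison, in which 3.26% of all tested genes were called higher and 2.63% lower with the block. Without the block 0.518% were called. Of 20 core Treg genes 18 were called higher in High with the block (7 without it), at a median log2 change of 0.47, and with Il2ra among them this list partly restates the gate. Of 20 effector Treg genes 15 had a negative change and 3 were called lower, at a list median of -0.30 (0 called without the block). These were Tigit (log2 -0.90, SE 0.18, edgeR adjusted p = 0.00608), an inhibitory receptor, S100a4 (log2 -1.44, SE 0.26, adjusted p = 0.0198), a calcium-binding protein of motile cells, and Maf. Itgae (log2 0.42, SE 0.10, adjusted p = 0.0233), the integrin CD103 that binds epithelial E-cadherin, was called higher in the same edgeR fit, as it is on both the core and the effector list. Of 14 naive or resting genes 4 were called lower, Dapl1 (log2 -1.23, SE 0.15), Ly6c1 (log2 -0.46, SE 0.06), Igfbp4 (log2 -0.48, SE 0.08) and Satb1, and 1, a marker used in the sort, was called higher, against 1 call without the block, Dapl1 lower.

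Genes of other cell types also differed by gate. The summed level of 17 myeloid or dendritic genes was 11.5 to 42.6 CPM in TG High and 15.0 to 24.0 CPM in WT High, against 12.2 to 166 CPM in TG Low and 13.6 to 94.6 CPM in WT Low, and between 0 and 10 of the 17 genes were at 0 in a library. With the block 3 of 9 tested genes of this list were called lower in High (C1qa, Csf1r and Ly6c2), as were 5 of 11 tested CD8 T or NK cell genes (Klrk1, Ncr1, Klrb1c, Klrd1 and Prf1) and 1 of 13 B cell genes (Cd22). Beside these counts, 5.88% of all tested genes were called with the block, and 2.63% of all tested genes were called lower. The B cell count lies near these shares. Of the 13 B cell genes, however, 12 had a negative change and 1 a positive one, at a list median of -0.38 on the log2 scale. Without the block 0 genes of each of these lists were called. The high values were the Low libraries numbered 1, in which Csf1r, a defining macrophage gene, had 21.2 CPM in TG and 15.6 CPM in WT, against 1.59 CPM and 0.107 CPM in their High partners. In the 8 libraries numbered 2 and 3 the same sum lay at 11.5 to 19.9 CPM, and there Cxcr3 (log2 -1.46, SE 0.19, edgeR adjusted p = 9.76e-04) and Ccr2 (log2 -1.28, SE 0.21, adjusted p = 0.00452) were still called with the block, beside 1.53% of all genes. Ccr4 then had the same log2 change, -0.94 (SE 0.23), without passing (adjusted p = 0.0873). The summed level of 13 CD8 T or NK cell genes was 82.7 to 110 CPM in TG High and 78.2 to 116 CPM in WT High, against 76.5 to 143 CPM in TG Low and 66.8 to 125 CPM in WT Low. Ncr1, a defining NK cell gene, reached 8.42 CPM in WT Low replicate 1 and was at 0 in all 4 libraries numbered 3, where the Cxcr3 ratio of High to Low was 0.378 in TG and 0.350 in WT. The part of these cells in the receptor differences was not tested.

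The second comparison, TG against WT, asked whether Tregs carry other receptors in mice with Atg5 removed from CD11c-expressing cells. None of the 10 receptors was called in CD25 High or in CD25 Low, and edgeR called 0% of all genes in either gate, without the block and with it. At an unadjusted p under 0.05 there were 99 genes in High and 48 in Low without the block, and 418 and 382 with it. DESeq2 called 0 genes in either gate without the block, and 7 in High and 2 in Low with it. Taken over both gates edgeR called 0% of genes without the block (163 at an unadjusted p under 0.05) and 0.051% with it (781 at an unadjusted p under 0.05). None of the called genes was a receptor named here. DESeq2 called 1 gene over both gates without the block and 36 with it, and in both cases 0 of the 10 receptors. Of the chemokine, signalling and lineage factor lists 0 genes were called between genotypes, and among other-cell markers the B cell gene Cd22 was called higher in TG (log2 1.04, SE 0.15, edgeR adjusted p = 0.0220 with the block). All 13 B cell genes had a positive TG minus WT change in that fit (median log2 0.67), and their summed level was 449 to 1109 CPM in TG High against 361 to 754 CPM in WT High, and 526 to 1179 CPM in TG Low against 437 to 939 CPM in WT Low. In the same fit 19 of 20 effector Treg genes had a positive change and 1 a negative one (median log2 0.31, 0 called). Of the 10 receptors 8 were positive and 2 negative (median log2 0.15). The part of B cells or of effector Tregs in the receptor values was not tested. The largest member difference over both gates with the block was that of Ccr2, a TG to WT ratio of 1.29 (95% interval 1.05 to 1.58, edgeR adjusted p = 0.632), with TG above WT in 5 of 6 pairs. Ccr8 followed at 1.19 (interval 1.01 to 1.39, adjusted p = 0.705), also higher in 5 of 6 pairs, and all other adjusted p-values of the receptors were at least 0.835.

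How much difference these libraries could have hidden varied among the receptors. With the block over both gates, the 95% interval of the TG to WT ratio was 0.872 to 1.03 for Ccr7, 0.863 to 1.13 for Ccr9 and 0.952 to 1.28 for Cxcr5. It was 0.900 to 1.39 for Cxcr3, 0.854 to 1.43 for Ccr4 and 0.821 to 1.62 for Ccr6. The intervals were widest for Cxcr6, 0.607 to 2.04, and Cxcr4, 0.433 to 2.36. For Cxcr4 the pairs themselves disagreed in both gates alike: TG was above WT in the pairs numbered 2, by 2.36-fold in High and 2.18-fold in Low, and below WT in the pairs numbered 3, by 3.43-fold in High and 3.26-fold in Low.

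**Figure D4:**
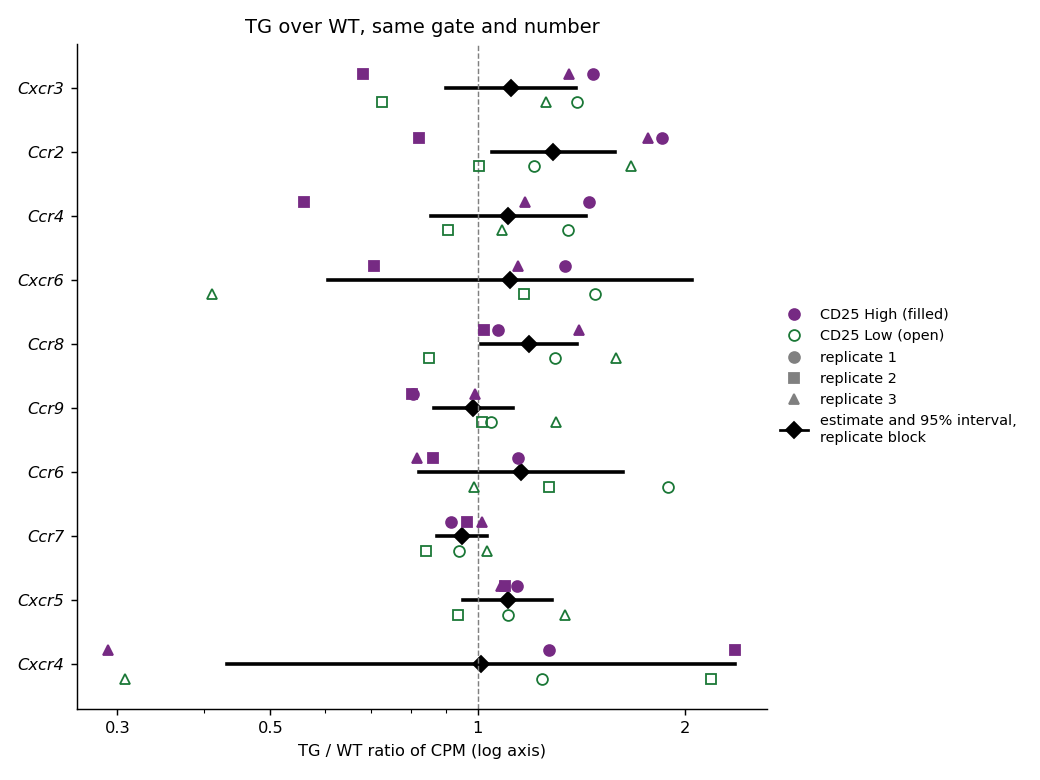
Ratio of TG to WT CPM for the 6 pairs of the same gate and number (filled, CD25 High; open, CD25 Low; shape, replicate number; log axis), with the estimate over both gates and its 95% interval from the model blocked on replicate number (diamond and bar). The Cxcr4 points lie on both sides of 1, from 0.291 to 2.36, at nearly the same place in both gates.

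Whether the genotype changed the difference between gates was tested as the difference of the genotype effects, High minus Low. No receptor was called (0% of all genes, 27 genes at an unadjusted p under 0.05 without the block; DESeq2 called 0). With the block the estimate was 0.10 for Cxcr3 on the log2 scale (95% interval -0.51 to 0.72), 0.28 for Ccr2 (-0.32 to 0.87) and 0.01 for Ccr4 (-0.72 to 0.74). For Ccr9 it was -0.35 (-0.73 to 0.03, edgeR adjusted p = 1.00).

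The replicate number went with large differences in these genes. An F test of the number in edgeR called 8 of the 10 receptors, beside 34.3% of all genes, the exceptions being Ccr7 (adjusted p = 0.0939) and Cxcr4 (adjusted p = 0.106). For Ccr4, Ccr6, Ccr8 and Cxcr6 each of the 4 libraries numbered 1 was above each of the other 8. Ccr8 averaged 43.0 CPM in the libraries numbered 1, 8.38 CPM in those numbered 2 and 8.88 CPM in those numbered 3. Cxcr3 averaged 60.2, 16.3 and 4.03 CPM in the same order, and Ccr2 41.3, 17.6 and 1.27 CPM, but for both the lowest library numbered 1 was below the highest numbered 2 (Ccr2 19.3 against 25.7 CPM, Cxcr3 27.0 against 27.8 CPM). Ccr9 did otherwise, with 20.8, 11.8 and 22.5 CPM and its lowest level in the libraries numbered 2, and Cxcr4 was highest there, at 57.8 CPM against 21.0 and 16.9 CPM.

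Among lists, all 20 effector Treg genes were called by number and highest in the libraries numbered 1, as were 13 of 13 B cell genes, 7 of 9 tested myeloid or dendritic genes and 6 of 8 tested further chemokine receptors. Over all tested genes the same held for 1930 of 11766. Of 14 naive or resting genes 12 were called, and 0 of these were highest in the libraries numbered 1. The meaning of the numbers is not given in the sources used here, and the part of other cells in these differences was not tested.

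**Figure D5:**
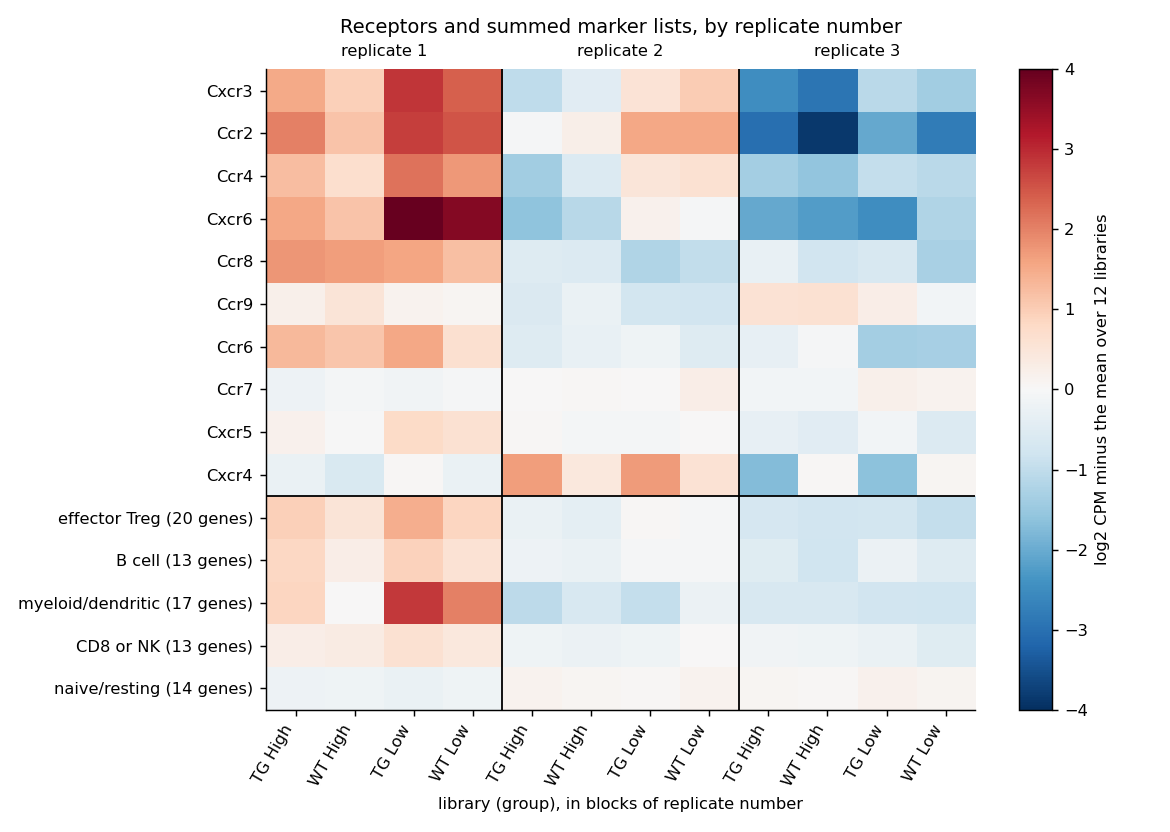
Log2 CPM of each receptor (upper rows) and of the summed genes of 5 marker lists (lower rows) in each library, as the difference from its mean over 12 libraries, with libraries in blocks of replicate number. The libraries numbered 1 are high for Cxcr3, Ccr2, Ccr4, Cxcr6, Ccr8 and Ccr6 and for the effector Treg, B cell and myeloid or dendritic lists, and Ccr7 is close to 0 throughout.

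Genes with the most similar pattern over the 12 libraries were listed by the root mean square difference of mean-centred log2 CPM, with a floor of 10 CPM on the mean level. Nearest to Cxcr3 were Il9r (0.42) and Myo1f (0.42), and nearest to Ccr2 were S100a4 (0.43), Tigit (0.50) and then Cxcr3 itself (0.73), against spreads of 1.75 for Cxcr3 and 2.18 for Ccr2 about their own means. Ccr4 lay nearest to Maf (0.25), Ccr6 to Irf4 (0.33) and Itgae (0.33), and Ccr8 to Nkg7 (0.29) and Penk (0.33). Cxcr6 lay nearest to the MHC class II gene H2-Eb1 (0.76), then to Cxcr3 (0.80) and Cybb (0.82), the last a phagocyte oxidase gene. Cxcr4 lay nearest to the heat shock co-chaperone gene Dnaja1 (0.43). These values describe 12 libraries that share replicate numbers, and no test was made of them.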

How the data were processed

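RNA was measured by sequencing of cDNA made with the SMARTer Ultra Low kit from 10 ng of total RNA, per the labels' protocols. That chemistry does not record strand. The authors deposited raw read counts for each Ensembl gene, without normalization. The submitters' processing notes name CASAVA 1.8.2, STAR 2.4, featureCounts 1.4.6 and build GRCm38, with settings not given in the sources used here.

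Identifiers were matched to GENCODE vM21 symbols. The test was that of edgeR 4.0.16 in R 4.3.3, with TMM scaling, filterByExpr (minimum count 10; all 10 receptors passed, as did 11766 genes with 99.96% of the counts), robust quasi-likelihood fits over 12 libraries with 4 groups as levels, and Benjamini-Hochberg adjustment over all tested genes at 0.05. Intervals are 95% and come from the fit. The replicate number as a block was an alternative. The numbers pair the samples: deviations from group means correlated at 0.340 to 0.830 between same-numbered libraries of different groups (18 pairs) and at -0.688 to 0.197 between differently numbered ones (36 pairs). This pairing comes from the data. Other alternatives were RLE size factors, DESeq2 1.42.0, no filter, only the compared groups, and libraries left out singly or by number. No 2 replicates of a group agreed within sampling noise (chi-square per degree of freedom 21.03 to 48.1). With 3 libraries a group, an exact permutation test has a smallest two-sided p of 0.1, and so only the model was used. Fits were also run on simulated counts in which the replicate number acted alike in all groups. That simulation cannot judge the block where the number acts differently by genotype, as it did for Cxcr4.

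All 10 receptors are named; of other lists, genes called with or without the block, at most 6 per list and comparison. The chromosome 9 neighbours were added after the values had been seen. Members and lists were chosen with earlier results of these data known. One other chemokine receptor is not reported here.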

Additional observations from a re-analysis of the deposited data

Results flagged for a closer look

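For Ccr9 the ratios of TG to WT lay on different sides of 1 in the gates. In CD25 High all 3 pairs were below 1, at 0.804 to 0.990, and in CD25 Low all 3 were above 1, at 1.01 to 1.30. The pairs at 0.990 and 1.01 were thus close to 1. How many other genes show the same split was not counted. The difference of the genotype effects was not called by edgeR without the block (log2 -0.34, SE 0.50, adjusted p = 1.00) or with it (log2 -0.35, SE 0.18, unadjusted p = 0.0696 from the model across all genes, adjusted p = 1.00). With each pair of High and Low libraries as a block, a fit chosen after seeing the data, the log2 difference was -0.37 (SE 0.16, adjusted p = 1.00 in edgeR). Groups of 3 libraries were not searched for outlying samples.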

How the results depend on the processing

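Without the replicate block, 0 of the 10 receptors were called in any gate or genotype comparison, also with RLE size factors, DESeq2, no filter, only the compared groups, without the 4 libraries numbered 1, or with any 1 library left out (0 to 0). The block made the calls. With it edgeR called 2 receptors in TG, 3 in WT and 6 over both genotypes in the gate comparison, beside 198, 192 and 692 of all 11766 genes. RLE size factors gave the same receptor numbers (203, 194 and 697 genes), as did no filter (226, 216 and 722 of 16061 genes). DESeq2 with the block called 3, 4 and 6 receptors, beside 362, 281 and 827 genes. Giving each genotype and number pair its own block called 3, 4 and 6, beside 202, 198 and 706 genes. Leaving out the libraries numbered 2 gave 2, 2 and 3 (237, 145 and 698 of 11995 genes). Leaving out those numbered 3 gave 2, 3 and 4 (176, 147 and 571 of 11936 genes). These pair-block and left-out settings and the blocked DESeq2, RLE and unfiltered fits were chosen after seeing the data. Without the 4 libraries numbered 1 the block gave 1, 1 and 2 (39, 49 and 177 of 11562 genes). Leaving out 1 library with the block gave 1 to 3 receptors in TG, 2 to 4 in WT and 3 to 6 over both (5 without TG High replicate 1 or any one of the 4 libraries numbered 2), and 8 to 9 for the replicate number, for which DESeq2 called 9 against 8 in edgeR. The pooled gate count over all genes was 61 without and 692 with the block, and 255 in DESeq2 without it, and those left-out ranges were 15 to 75 and 415 to 775 genes. Within a genotype the left-out ranges with the block were 74 to 235 genes in TG and 87 to 247 in WT. Of 380 gate values of single receptors under other settings 79 became calls and 0 reversed as calls, and of 470 genotype values or differences of effects 0 became calls. Depth limits Cxcr6 most, at 7 to 58 counts in the libraries numbered 2 and 3 other than TG Low replicate 2.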
